A study of Mus musculus with 24 samples.

Results

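Phgdh, Psat1, Psph, Shmt1, Shmt2, Mthfd1, Mthfd2 and Mthfd1l encode the enzymes that make serine from a glycolytic intermediate and pass its side-chain carbon to folate. These 8 genes were chosen by name for their place in the pathway, each has 1 row in the expression table, and they are 8 of its 16572 gene names. They were measured in class IV mouse oocytes (60 to 70 µm in diameter per the labels), grown in vitro either in 5% O2 for 9 days (IV 5% O2) or in 20% O2 for 14 days (IV 20% O2). Both groups came from digested ovaries of 7-day-old mice labelled C57BL/6 Barb, for which the methods also name breeding with SV129 background mice, and neither received a drug or carried a modified allele according to the labels. The oocytes grew without follicles on a dish that at first also held theca-like cells of the same ovaries. The medium was renewed every 24 hours in 5% O2 and every 48 hours in 20% O2, and the methods give a smaller diameter for the oocytes from 20% O2 than the labels do. Oxygen, culture time, medium renewal and oocyte size therefore cannot be told apart.

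Total RNA depleted of ribosomal RNA was sequenced from 2 libraries per condition, but the table holds 1 value per gene and condition. No difference given here therefore has an SD, a replicate check or a p-value. The values are log2 RPM, that is, reads relative to library depth with no correction for gene length, and 1 read was worth 0.00757 RPM in the IV 5% O2 column and 0.0245 RPM in the IV 20% O2 column. This corresponds to 132185258 and 40875359 reads, so the IV 5% O2 values carry less counting error. Each difference is the log2(RPM + 1) value of IV 5% O2 minus that of IV 20% O2, over the 14704 genes that averaged at least 1 RPM. The median gene stood at 0.26 on this scale. Intervals are exact 95% Clopper-Pearson intervals of the ratio of the reads, and they cover counting error only.

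Serine is made from 3-phosphoglycerate in a short chain of reactions: oxidation by PHGDH, transamination with glutamate by PSAT1 and removal of the phosphate by PSPH. SHMT1 in the cytosol and SHMT2 in mitochondria then split serine into glycine and a carbon unit bound to tetrahydrofolate. MTHFD2 and MTHFD1L turn that unit into formate inside mitochondria, and MTHFD1 uses formate in the cytosol for purines, thymidylate and the methyl groups of methionine. In growing oocytes these routes feed nucleotide synthesis and the S-adenosylmethionine that DNA and histone methyltransferases use.

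All 8 genes were expressed in both conditions, from 21.4 RPM (Psph) to 273 RPM (Mthfd2) in IV 5% O2 and from 24.3 RPM (Shmt1) to 227 RPM (Mthfd2) in IV 20% O2. The main difference among them was Psat1, which was 2.96-fold higher in IV 20% O2, followed by Shmt2, which was 1.72-fold higher there. Psph and Mthfd1 were also higher in IV 20% O2, and the other 4 genes had log2 differences of 0.02 to 0.26. None of the 8 was at least 2-fold higher in IV 5% O2, where 18.7% of all genes tested were, and 1 of 8 was at least 2-fold lower, against 9.22% of all genes. The median difference of the 8 was -0.10, beside 0.26 for all genes, and 7 of 8 lay below the median gene. With median-ratio scaling the 2 medians were -0.41 and -0.03, 2 of 8 genes were 2-fold lower, against 13.6% of all genes, and 0 of 8 were 2-fold higher, against 12.0%. After quantile normalization they were -0.27 and 0.06, 1 of 8 genes was 2-fold lower, against 12.5% of all, and 0 of 8 were 2-fold higher, against 12.2%. These counts are descriptions of 2 pooled columns and set nothing apart from other genes. Markers of theca and stroma cells summed to 45.3 RPM under 5% O2 and 5.48 RPM under 20% O2, and those of oocytes to 9360 and 13137 RPM. The oocyte markers differed unequally, with Zp2 at 1537 and 3807 RPM but Nlrp5 at 1905 and 1823 RPM. The part of these cell types in the differences of the 8 genes was not tested, and in such bulk samples fewer cells of a type and less RNA per cell cannot be told apart.

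**Figure D1:**
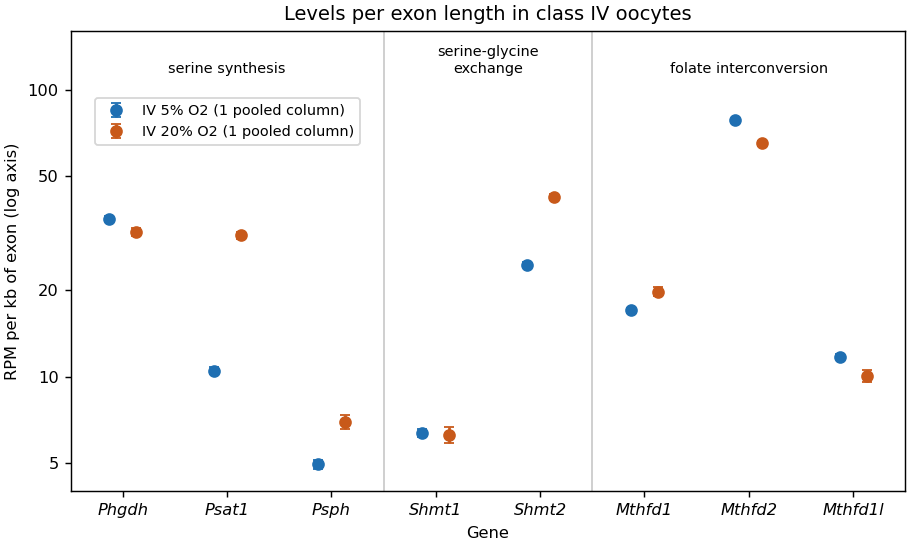
Level of each gene in the IV 5% O2 column (blue) and the IV 20% O2 column (orange), as RPM per kb of exon on a log axis, with the genes grouped by role. Bars are exact 95% Poisson counting intervals and mostly lie within the points. Psat1 shows the widest gap (10.5 and 31.1), and Mthfd2 is the highest gene in both columns (78.2 and 65.2).

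The serine synthesis enzymes differed unequally. Phgdh (ENSMUSG00000053398.11; GRCm38 chr3:98313170-98339990, minus strand), the first enzyme of the chain, had 88.4 RPM (11689 reads) under 5% O2 and 79.3 RPM (3240 reads) under 20% O2. These levels were close to each other, 0.16 apart in log2 terms (counting interval 0.10 to 0.21) and 0.10 below the median gene (-0.10). The sign of this difference was not stable, since it was -0.16 with median-ratio scaling of the columns and -0.057 with quantile normalization. The Phgdh values are also uncertain because 22.4% of the 100-base windows along its exons (28 of 125) occur at least once more in the genome. Those copies lie at the annotated genes Gm8341 on chromosome 15, Gm9252 and Gm9347 on chromosome 7, and Gm7901 within Iqcm on chromosome 8. None of these names has a row in the table, and how reads with several matches were counted is not stated. No such 100-base window was found for the other 7 genes.

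Psat1 (ENSMUSG00000024640.9; chr19:15904678-15947337, minus strand), the aminotransferase of the middle step, had 44.7 RPM (5904 reads) under 5% O2 and 132 RPM (5406 reads) under 20% O2. It was thus lower in IV 5% O2 by more than any other of the 8 genes, with a difference of -1.55 in log2 terms (counting interval -1.62 to -1.51). Measured from the median gene this was -1.80, and it lay at percentile 4.55 of all genes tested. It kept its direction and stayed over 2-fold when the columns were scaled by median ratio (-1.86) or quantile-normalized (-1.75). Psat1 moved from percentile 69.4 of all tested genes by RPM in IV 5% O2 to percentile 91.5 in IV 20% O2. Psph (ENSMUSG00000029446.14; chr5:129765558-129787449, minus strand), the phosphatase of the last step, had 21.4 RPM (2828 reads) under 5% O2 and 30.1 RPM (1230 reads) under 20% O2. Its log2 difference of -0.47 (counting interval -0.59 to -0.39) had the direction of Psat1 but not its size. A stretch of 452 bases, or 10.4% of the exonic length of Psph, overlaps Cct6a on the opposite strand (40.6 and 47.8 RPM). The libraries kept strand, but whether the counting used it is not stated, so reads in that stretch may belong to either gene.

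The promoters of these 3 genes are shown because they belong to consecutive steps of 1 pathway whose differences were unlike. Each window runs from 250 bases before to 50 bases after a RefSeq start on GRCm38.p6, 5′ to 3′ on the strand of the gene, which is minus for all. Psat1 has 2 such starts, and capitals mark a match to the core of the antioxidant response element, TGACNNNGC, here read on the opposite strand.
Phgdh, chr3:98339920-98340219: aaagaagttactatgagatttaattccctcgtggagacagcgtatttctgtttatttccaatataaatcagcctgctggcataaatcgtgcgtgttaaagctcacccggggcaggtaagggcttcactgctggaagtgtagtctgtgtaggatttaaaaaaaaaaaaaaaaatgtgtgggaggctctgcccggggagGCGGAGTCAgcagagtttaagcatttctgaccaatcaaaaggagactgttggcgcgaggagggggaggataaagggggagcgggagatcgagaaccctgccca
Psat1, chr19:15925010-15925309: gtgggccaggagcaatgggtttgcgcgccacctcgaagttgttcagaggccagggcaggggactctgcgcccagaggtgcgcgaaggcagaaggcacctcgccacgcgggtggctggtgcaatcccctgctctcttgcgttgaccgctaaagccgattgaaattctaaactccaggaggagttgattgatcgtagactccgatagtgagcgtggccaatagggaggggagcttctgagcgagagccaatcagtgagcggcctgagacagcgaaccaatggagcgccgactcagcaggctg
Psat1, chr19:15924573-15924872: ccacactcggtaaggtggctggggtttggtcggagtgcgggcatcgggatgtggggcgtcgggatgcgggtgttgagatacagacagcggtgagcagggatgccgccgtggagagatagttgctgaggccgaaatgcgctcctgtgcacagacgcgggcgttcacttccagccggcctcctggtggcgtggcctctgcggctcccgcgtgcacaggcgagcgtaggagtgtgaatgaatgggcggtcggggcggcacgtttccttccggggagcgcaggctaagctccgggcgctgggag
Psph, chr5:129787204-129787503: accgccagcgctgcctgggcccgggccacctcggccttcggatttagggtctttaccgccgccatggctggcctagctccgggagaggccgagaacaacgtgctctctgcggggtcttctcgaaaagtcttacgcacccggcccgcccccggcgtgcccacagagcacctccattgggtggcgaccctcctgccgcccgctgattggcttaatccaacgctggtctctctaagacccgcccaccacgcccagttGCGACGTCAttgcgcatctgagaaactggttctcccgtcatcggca
The match GCGGAGTCA begins at base -53 of Phgdh and the match GCGACGTCA at base 5 of Psph, counted from the start. RefSeq gave 9 windows for the 8 genes. The element core was found in 2 of these 9 and in 12.4% of all 32851 promoter windows of the same length. The core of the CEBP-ATF response element, TGATGNAA, which is bound by ATF4 with a C/EBP partner, was found in 0 of the 9 windows and in 3.97% of all. The E-box CACGTG was found in 0 of the 9 windows and in 7.15% of all. Both strands were searched, and a match or its absence describes only letters in these windows. The windows of the 8 genes held 8 to 30 CpG dinucleotides, beside a median of 7 over all promoter windows. The GC content of these windows was lowest for Shmt2 (42.7%) and highest for the second Psat1 start (66.7%), beside a median of 52.7% over all.

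Of the enzymes that exchange serine and glycine, the mitochondrial form was lower in IV 5% O2, and the cytosolic form was within counting error of equal RPM as deposited. Shmt2 (ENSMUSG00000025403.5; chr10:127517123-127522444, minus strand) had 76.4 RPM (10099 reads) under 5% O2 and 131 RPM (5373 reads) under 20% O2. It was therefore lower in IV 5% O2, with a difference of -0.78 in log2 terms (counting interval -0.83 to -0.73), which is -1.03 when measured from the median gene. The 2-fold mark was passed with median-ratio scaling (-1.09) and just missed with quantile normalization (-0.99). Shmt1 (ENSMUSG00000020534.14; chr11:60788104-60811718, minus strand) had 24.7 RPM (3266 reads) under 5% O2 and 24.3 RPM (995 reads) under 20% O2. The interval of its ratio, -0.08 to 0.13 on the log2 scale, included 0, and its difference of 0.02 became -0.29 when scaled by median ratio and -0.13 when quantile-normalized. Exons of Shmt1 share 184 bases with Smcr8 on the opposite strand (22.6 and 35.8 RPM), and those of Shmt2 share 32 bases with Ndufa4l2 (1.41 and 0.367 RPM).

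The genes that interconvert the folate-bound carbon differed little. Mthfd2 (ENSMUSG00000005667.8; chr6:83305691-83325908, minus strand), the mitochondrial dehydrogenase and cyclohydrolase, had 273 RPM (36030 reads) under 5% O2 and 227 RPM (9295 reads) under 20% O2. It was the most abundant of the 8 genes in both columns, and its log2 difference of 0.26 (counting interval 0.23 to 0.29) was that of the median gene. Mthfd1l (ENSMUSG00000040675.17; chr10:3973118-4167081, plus strand), the mitochondrial formate-releasing synthetase, had 52.1 RPM (6887 reads) under 5% O2 and 44.5 RPM (1820 reads) under 20% O2. Its log2 difference was 0.22 (counting interval 0.15 to 0.30). The differences of both genes turned negative with median-ratio scaling (-0.058 for Mthfd2 and -0.091 for Mthfd1l) and stayed above 0 with quantile normalization (0.01 and 0.05). Mthfd1 (ENSMUSG00000021048.7; chr12:76255298-76319803, plus strand), the cytosolic enzyme that carries 3 activities on 1 protein, had 75.7 RPM (10009 reads) under 5% O2 and 88.0 RPM (3595 reads) under 20% O2. It was lower in IV 5% O2 with each scaling, its log2 difference being -0.21 as deposited (counting interval -0.27 to -0.16), -0.53 when scaled by median ratio and -0.41 when quantile-normalized.

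**Figure D2:**
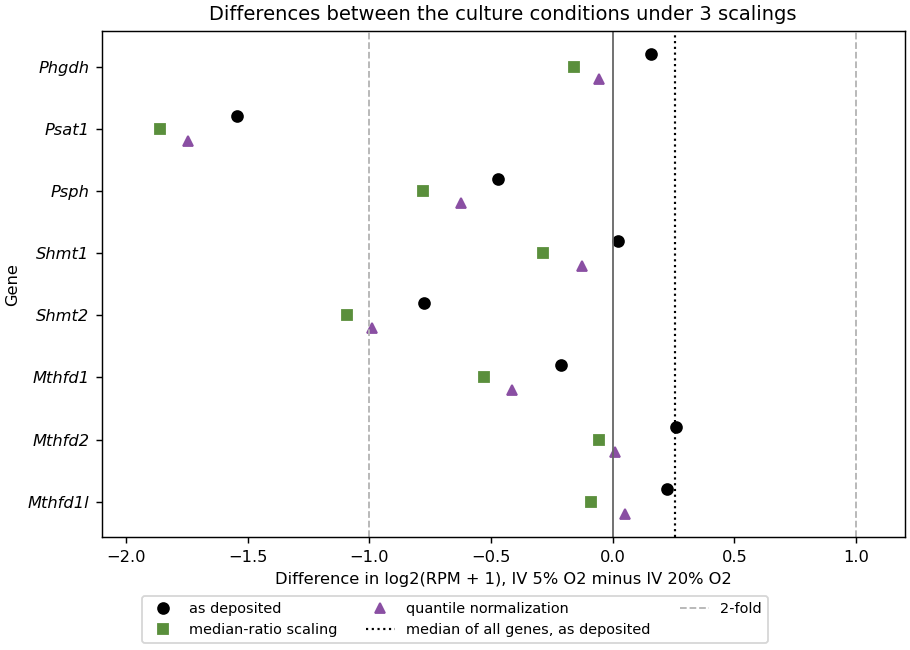
Difference in log2(RPM + 1), IV 5% O2 minus IV 20% O2, for each gene with the columns as deposited (circles), after median-ratio scaling (squares) and after quantile normalization (triangles). The dotted line is the median of all genes as deposited (0.26) and the dashed lines mark 2-fold; Psat1 lies beyond the lower one with each scaling (-1.55 to -1.86), whereas Phgdh, Shmt1, Mthfd2 and Mthfd1l change sign with at least 1 scaling.

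Summed by role, the serine synthesis genes had 154 RPM under 5% O2 and 242 RPM under 20% O2, and the Shmt genes had 101 and 156 RPM. The 3 interconversion genes had 400 and 360 RPM, and the sum of all 8 was 656 RPM under 5% O2 and 757 RPM under 20% O2. The mitochondrial genes Shmt2, Mthfd2 and Mthfd1l together had 401 and 403 RPM as deposited, since lower Shmt2 in IV 5% O2 was offset in this sum by higher Mthfd2 and Mthfd1l. With median-ratio scaling all 3 interconversion genes were lower in IV 5% O2 (Mthfd2 -0.058, Mthfd1l -0.091 and Mthfd1 -0.53). The direction of their sum and this offset therefore depend on the scaling. Levels of different genes were compared per kb of exon, using the merged exons of GENCODE. On this scale Psat1 made up 20.6% of the serine synthesis sum in IV 5% O2 and 44.5% in IV 20% O2, while Phgdh made up 69.7% and 45.6%. The share of Psph was 9.69% and 9.94%.

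Per kb of exon, the order in IV 5% O2 was Mthfd2 (78.2), Phgdh (35.6), Shmt2 (24.6), Mthfd1 (17.0), Mthfd1l (11.7), Psat1 (10.5), Shmt1 (6.36) and Psph (4.94). In IV 20% O2 it was Mthfd2 (65.2), Shmt2 (42.3), Phgdh (31.9), Psat1 (31.1), Mthfd1 (19.8), Mthfd1l (10.0), Psph (6.95) and Shmt1 (6.27). Psat1 thus stood at rank 6 in IV 5% O2 and at rank 4 in IV 20% O2, and Shmt2 passed Phgdh. Phgdh and Psat1 in IV 20% O2 were the only neighbours in either order whose ratio was within counting error (1.03, interval of 0.98 to 1.07). These orders depend on the length used, since with the longest transcript of each gene Psat1 stood at rank 5 in IV 5% O2 and at rank 3 in IV 20% O2, where it was 1.21 times Phgdh. The spread between libraries behind these orders is unknown.

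Ratios between genes within a column do not depend on a scale factor applied to the whole column, such as the median ratio, but quantile normalization is not such a factor and can change them. The intervals of their changes are normal approximations on the log reads. The ratio of Psat1 to Phgdh per kb was 0.295 in IV 5% O2 and 0.975 in IV 20% O2, a change of -1.72 on the log2 scale (counting interval -1.80 to -1.65). The ratio of Psph to Phgdh was 0.139 and 0.218, a change of -0.65 (counting interval -0.76 to -0.54). Both later enzymes were thus lower relative to Phgdh in IV 5% O2, with the limit on Phgdh given above. Against Psph, which has no repeated 100-base windows, Psat1 had ratios of 2.12 and 4.47, a change of -1.07 (counting interval -1.18 to -0.96).

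The mitochondrial to cytosolic ratio moved in opposite directions for the exchange and interconversion steps. Shmt2 to Shmt1 was 3.86 in IV 5% O2 and 6.74 in IV 20% O2, a change of -0.80 (counting interval -0.92 to -0.69). Mthfd2 to Mthfd1 was 4.59 and 3.29, a change of 0.48 (counting interval 0.41 to 0.54). Mthfd1l to Mthfd1 was 0.689 and 0.507, a change of 0.44 (counting interval 0.35 to 0.54). The ratio of Mthfd2 to Mthfd1l was 6.65 and 6.50, and its change of 0.03 was within counting error (counting interval -0.05 to 0.12). Shmt2 was lower relative to Mthfd2 in IV 5% O2 (0.314) than in IV 20% O2 (0.648), a change of -1.04 (counting interval -1.10 to -0.99). Psat1 to Shmt2 was 0.427 and 0.735, so the 2 genes with the largest differences did not keep 1 ratio (change -0.78, interval -0.85 to -0.71). The ratios with Psph, Mthfd1l and Mthfd2 as denominators, and that of Psat1 to Shmt2, were added after the values had been seen.

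**Figure D3:**
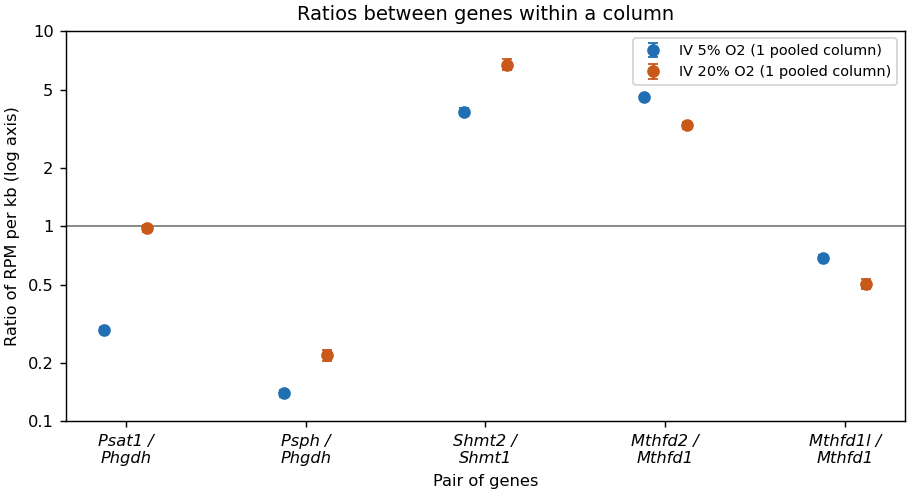
Ratio of RPM per kb of exon between pairs of genes in the IV 5% O2 column (blue) and the IV 20% O2 column (orange) on a log axis, with 95% counting intervals. Psat1 to Phgdh (0.295 and 0.975) and Shmt2 to Shmt1 (3.86 and 6.74) are higher in IV 20% O2, while Mthfd2 to Mthfd1 (4.59 and 3.29) is higher in IV 5% O2.

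The remaining genes of serine, folate and methionine metabolism were described by list. Over all lists together, 2 of 70 genes tested were at least 2-fold higher in IV 5% O2 and 11 of 70 at least 2-fold lower, beside 18.7% and 9.22% of all genes, and their median difference was 0.01. With either scaling the counts were 1 and 14 of 70. The shares over all genes were then 12.0% and 13.6% (median ratio) or 12.2% and 12.5% (quantile). The single values that follow are as deposited, and median-ratio scaling shifts that of an abundant gene by -0.32. Of the 10 other folate enzymes tested, 0 were higher and 2 were lower, with a median of 0.03, which was 0.50 over the genes averaging 5 RPM or more and 0.43 per kb. Ggh, a hydrolase of folate glutamates, had 0.704 RPM under 5% O2 and 1.86 RPM under 20% O2 (-0.75 as deposited). It joined those lower after quantile normalization (-1.11) but not with median-ratio scaling (-0.92). The 2 lower as deposited were Mthfs, which returns 5-formyltetrahydrofolate to the active pool (0.681 RPM under 5% O2 and 3.35 RPM under 20% O2, log2 difference -1.37), and Mthfsl (0.0530 and 3.03 RPM, -1.94). Their names mark them as related genes, and 15.6% and 21.5% of their 100-base exonic windows are repeated in the genome, so the split of reads between them is uncertain. With a pseudocount of 5 RPM neither was 2-fold apart (-0.56 and -0.67). Fpgs, which adds glutamates that retain folate in the cell, had 156 RPM under 5% O2 and 79.9 RPM under 20% O2, 0.96 apart in log2 terms. Tyms, the thymidylate synthase, had 77.3 and 56.5 RPM (0.45).

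None of the 3 folate transport genes and none of the 3 glycine cleavage genes tested was 2-fold apart, with medians of 0.02 and 0.00. Slc25a32, the mitochondrial folate carrier, had 69.9 RPM under 5% O2 and 42.4 RPM under 20% O2 (0.71), and Slc19a1, the reduced folate carrier, had 12.1 and 18.6 RPM (-0.58). Dld, the lipoamide dehydrogenase that the cleavage system shares with other complexes, had 167 and 185 RPM (-0.15). Gcsh, its lipoate carrier protein, had 11.8 and 6.87 RPM (0.70). With 3 genes each, these lists give little beyond their single values.

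In the methionine cycle and transsulfuration, 0 of 11 genes were 2-fold higher and 3 of 11 were 2-fold lower in IV 5% O2, with a median of 0.09. The shares over all genes tested were 18.7% and 9.22%. Ahcy, the hydrolase that removes S-adenosylhomocysteine, had 15.6 RPM under 5% O2 and 49.9 RPM under 20% O2 (-1.61), and its relative Ahcyl1 had 14.1 and 44.6 RPM (-1.59). The Ahcy values are uncertain because 51.1% of its 100-base exonic windows are repeated in the genome, whereas none of those of Ahcyl1 are. Cth, which forms cysteine from cystathionine, had 22.1 and 65.7 RPM (-1.53). The differences of these 3 genes were close in size to that of Psat1. Mat2b and Mat2a, subunits of a synthetase that makes S-adenosylmethionine, had 622 and 485 RPM (0.36) and 92.9 and 103 RPM (-0.15), which became 0.04 and -0.46 with median-ratio scaling. Mat1a, of the same family as Mat2a, had 70.4 and 39.0 RPM (0.84, or 0.52 with that scaling).

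Of 13 purine synthesis genes, 1 was 2-fold higher and 0 were lower as deposited, beside 18.7% and 9.22% of all genes. The median of these 13 was 0.08, which turned to -0.22 and -0.14 with the scalings. Ppat, the amidotransferase of the first committed step, was lower (4.41 and 9.13 RPM, -0.90) and passed 2-fold with median-ratio scaling (-1.18) and quantile normalization (-1.08). The one higher was Adssl1, an adenylosuccinate synthase, with 10.2 RPM (1352 reads) under 5% O2 and 0.709 RPM (29 reads) under 20% O2, 2.72 apart in log2 terms. The abundant isozyme Adss had 292 and 272 RPM, and its difference of 0.10 turned to -0.22 after median-ratio scaling and -0.15 after quantile normalization. Gmps, the GMP synthase, had 105 and 138 RPM (-0.39). Of 6 genes that use serine for lipids or racemization, 1 was 2-fold higher and 0 were lower as deposited, with a median of 0.36. The shares over all genes were again 18.7% and 9.22%. With median-ratio scaling 0 of these 6 were higher and 1 was lower, with a median of 0.08. The shares over all genes were then 12.0% and 13.6%. The gene lower with that scaling was Srr, the serine racemase (12.0 and 20.4 RPM, -0.72 as deposited and -1.02 with that scaling). The gene higher as deposited was Sptlc2, a subunit of serine palmitoyltransferase (34.3 RPM under 5% O2 and 15.8 RPM under 20% O2, 1.07), which fell below 2-fold with median-ratio scaling (0.76) and quantile normalization (0.92). Its partner Sptlc1 had 183 and 120 RPM (0.60).

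The carriers that bring serine, glycine and related amino acids into the cell or the mitochondrion included 0 of 7 genes that were 2-fold higher and 2 of 7 that were 2-fold lower, with a median of -0.28 (as low as -0.66 per kb). Of all genes tested, 18.7% were 2-fold higher and 9.22% were 2-fold lower. Slc38a2, a sodium-coupled neutral amino acid carrier, had 34.2 RPM under 5% O2 and 142 RPM under 20% O2 (-2.02). Slc1a5, an exchanger of neutral amino acids including serine and glutamine, had 9.52 and 24.7 RPM (-1.29). Slc6a9, the glycine carrier that was the most abundant gene of the list, differed less, with 238 and 278 RPM (-0.22).

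Several serine synthesis and mitochondrial folate genes are textbook targets of ATF4, the transcription factor of the amino acid and integrated stress responses. Of 17 genes of the ATF4 arm and its other known targets, 0 were 2-fold higher in IV 5% O2 and 4 were 2-fold lower, with a median of -0.12 (-0.43 with median-ratio scaling). The shares over all genes tested were 18.7% and 9.22%. The list was split, since 7 of the 17 differences were above 0 as deposited. Of all gene names, 63.0% were higher in IV 5% O2 by any amount. Trib3, a pseudokinase gene, joined the 4 lower genes with both scalings (31.4 and 59.9 RPM, -0.91 as deposited, -1.22 with median-ratio scaling and -1.10 after quantile normalization). Asns, the asparagine synthetase, had 83.4 RPM under 5% O2 and 179 RPM under 20% O2 (-1.10), and Chac1, a glutathione-degrading enzyme, had 20.1 and 70.6 RPM (-1.76). Cebpb had 8.76 and 23.5 RPM (-1.33), and Nupr1 had 0.545 RPM (72 reads) and 3.01 RPM (123 reads), a difference of -1.38 that was -0.53 with a pseudocount of 5 RPM. The most abundant genes of the list were less than 2-fold apart. The cystine carrier gene Slc7a11 had 351 and 426 RPM (-0.28, or -0.60 with median-ratio scaling), lower in IV 5% O2 like those 4, and the alanyl-tRNA synthetase gene Aars had 409 and 336 RPM (0.28, or -0.04 with that scaling). Atf4 itself, named after its value had been seen, had 290 RPM under 5% O2 and 328 RPM under 20% O2, which is -0.18 in log2 terms.

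**Figure D4:**
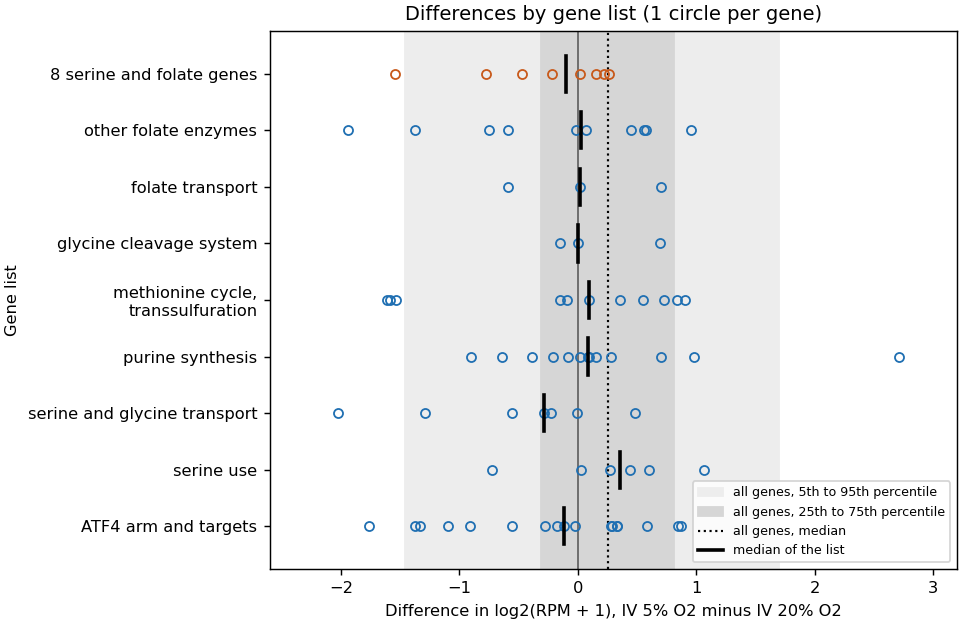
Difference in log2(RPM + 1), IV 5% O2 minus IV 20% O2, as deposited, for each gene tested (circles) of the 8 serine and folate genes (orange) and of 8 related lists (blue), with the median of each list as a black bar. The shaded bands hold the central part of all 14704 genes (25th to 75th percentile, -0.31 to 0.82; 5th to 95th percentile, -1.46 to 1.70), and the dotted line is their median (0.26). As deposited, the medians of all lists but serine use (0.36) lie below that line.

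Markers of cell types were read in the same columns, where 63.0% of all gene names were higher in IV 5% O2 by any amount as deposited and 50.4% with median-ratio scaling. The 10 oocyte markers were led by Gdf9 (2346 and 2805 RPM) and Nlrp5 (1905 and 1823 RPM) in IV 5% O2 and by Zp2 (1537 and 3807 RPM) and Gdf9 in IV 20% O2, and 2 of 10 were higher in IV 5% O2. The 10 of 14 theca and stroma markers with a row in the table were, 10 of 10, higher in IV 5% O2. In IV 5% O2 they were led by Cyp11a1 (16.4 and 0.122 RPM) and Hsd3b1 (5.96 and 0.489 RPM), in IV 20% O2 by Fn1 (4.94 and 2.30 RPM) and Star (5.18 and 1.86 RPM), and Dcn, Vim and Col1a2 were at 0 reads in IV 20% O2. The 6 of 11 granulosa markers summed to 41.3 and 29.8 RPM, led by Nr5a2 (18.7 and 17.6 RPM), followed by Kitl (10.2 and 5.58 RPM) in IV 5% O2 and by Cyp19a1 (9.12 and 5.70 RPM) in IV 20% O2. Of these 6 markers, 5 of 6 were higher in IV 5% O2, and Fshr was at 0 reads in IV 5% O2 and Inha in IV 20% O2. The 3 of 5 endothelial markers summed to 61.0 and 36.1 RPM, led by Pecam1 (45.9 and 32.7 RPM) and Tek (13.8 and 3.40 RPM), with 3 of 3 higher in IV 5% O2 and Kdr at 0 reads in IV 20% O2. The 3 of 6 macrophage markers summed to 17.9 and 21.1 RPM, led by Csf1r (9.28 and 15.0 RPM) and Cd68 (7.18 and 6.14 RPM), 2 of 3 were higher in IV 5% O2, which is near the share of all genes, and Lyz2 was at 0 reads in IV 20% O2. The 1 of 6 erythroid markers, Alas2, had 1.32 and 1.57 RPM.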

How the data were processed

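The RNA-seq libraries of class IV oocytes (2 from 5% O2 and 2 from 20% O2) were used, and the other libraries of the study were not analysed here. The authors trimmed reads (Trim Galore 0.2.8 and 0.3.5 are in the submitters' processing notes), aligned them to mm10 (GRCm38) with TopHat2 2.0.9, counted them over merged exons in SeqMonk and deposited log2 values, 1 pooled column per condition. How libraries were combined is not stated. The deposited log2 values are named RPKM, but within 0.02 of a read 99.4% and 99.9% of the linear values were whole multiples of 1 read, the same for every gene, so they were read as log2 RPM with no correction for length. A gene without reads, listed at 0.9 of a read, was set to 0 RPM. The library totals implied are 132185258 and 40875359 reads, of which 109629353 and 29754908 lay on genes, and a count of 0 allows up to 3 reads (0.0227 and 0.0734 RPM). The table has 16591 rows, and of the 18 names with several rows the one with the highest mean was taken. A further 1 value column matches no sample and was not used.

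Differences used log2(RPM + 1), which understates changes of low genes, at a mean of at least 1 RPM; 2-fold counted as apart, and no test was possible on pooled columns. The design had foreseen a model over libraries only if the table held them. Exonic length, overlaps and repeated windows (100 bases, every 10 bases) came from GENCODE vM21 on GRCm38, and promoters from RefSeq. Alternatives were pseudocounts of 0.1 and 5 RPM, no filter, a mean of 5 RPM, median-ratio scaling, quantile normalization, sums over rows and the longest transcript as length; RPM per kb was added after the data were seen. The 8 genes and all lists were chosen with earlier results of these data known. Named were the 8 genes, each listed gene 2-fold apart, up to 2 abundant genes per list and the 2 most abundant markers per cell type in either column. Atf4, Ggh, Mat1a, Ppat, Srr and Trib3 were named after their values were seen. The full lists hold 12 other folate enzymes, 5 folate carriers, 4 glycine cleavage, 13 methionine, 15 purine, 9 carrier, 8 serine use and 18 ATF4 genes. The computation was tested on simulated reads that held counting error only, so this test cannot speak to the spread between libraries. Computation used Python 3.11.15 with scipy 1.17.1, numpy 2.4.6 and pandas 2.3.3; numba 0.67.0 searched the genome and matplotlib 3.10.9 drew the plots.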

Additional observations from a re-analysis of the deposited data

How the results depend on the processing

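No paired analysis was possible because each condition is 1 pooled column, and leaving out a library, edgeR and DESeq2 could not be run for the same reason. Psat1, Psph, Shmt2 and Mthfd1 kept their direction under every alternative run. Scaling moved the median of all genes from 0.26 to -0.03 (median ratio) or 0.06 (quantile), the genes 2-fold higher in IV 5% O2 from 2753 to 1758 or 1799, and those 2-fold lower from 1356 to 2003 or 1831; as a share of all genes 2-fold apart, those higher were 67.0%, 46.7% and 49.6%. With median-ratio scaling the log2 differences of Phgdh (-0.16), Shmt1 (-0.29), Mthfd2 (-0.058) and Mthfd1l (-0.091) turned negative, and with quantile normalization those of Phgdh (-0.057) and Shmt1 (-0.13). The median of the 8 genes was then -0.41 or -0.27, and 2 of them (Psat1 and Shmt2) were 2-fold lower with median-ratio scaling. List medians turned negative for other folate enzymes (-0.28 and -0.13 with median-ratio scaling and quantile normalization), folate transport (-0.20 and -0.25), glycine cleavage (-0.20 and -0.30), methionine and transsulfuration (-0.20 and -0.048; -0.0038 per kb) and purine synthesis (-0.22 and -0.14). The median of other folate enzymes was 0.50 over genes averaging 5 RPM or more and 0.43 per kb, that of serine and glycine transport was -0.56 and -0.66 there and -0.59 and -0.46 with the scalings, and that of serine use was 0.08 and 0.14 and of the ATF4 list -0.43 and -0.28 with the scalings.

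The genes 2-fold higher numbered 1202 with a pseudocount of 5 RPM, 1691 among genes averaging 5 RPM or more and 1609 per kb; those 2-fold lower numbered 706 with a pseudocount of 5 RPM, 917 among genes averaging 5 RPM or more and 899 per kb. Of the listed genes, 4 were 2-fold higher with a pseudocount of 0.1 RPM and 1 (Adssl1) with a pseudocount of 5 RPM, either scaling or per kb, where Sptlc2 lay between 0.76 and 0.92; those 2-fold lower went from 11 to 14 with either scaling (Ppat and Trib3, with Srr for the median ratio and Ggh for quantile), 13 with a pseudocount of 0.1 RPM and 8 with one of 5 RPM, over genes averaging 5 RPM or more, or per kb. With median-ratio scaling 1 oocyte and 1 macrophage marker were higher in IV 5% O2. With the longest transcript as length, the ratios in IV 5% O2 and IV 20% O2 were 0.365 and 1.21 (Psat1 to Phgdh), 0.159 and 0.250 (Psph to Phgdh), 5.60 and 4.02 (Mthfd2 to Mthfd1) and 0.605 and 0.445 (Mthfd1l to Mthfd1), which puts Psat1 above Phgdh in IV 20% O2 and above Mthfd1l in IV 5% O2. Depth limits none of the 8 genes, since the lowest count was 995 reads, but the spread between libraries is unknown.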
